A study of Glycine max with 12 samples.

Results

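Soybean genes whose transcripts were higher in the leaf and lower in the root of plants that overexpress GmZF351 form a set of 114 among the 43517 gene models counted. GmZF351 encodes a tandem CCCH zinc finger protein, a class that binds nucleic acids, and it is known for raising the oil content of soybean seeds. Expanded leaves make sugars and export them, and roots import those sugars and take up water and minerals, so many genes are used at different levels in these organs. A change of genotype can move a transcript in the same direction in both organs, in 1 of them, or in opposite directions, and the 114 genes belong to the last kind.

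RNA came from 4 groups of 3 libraries. OE leaf and OE root are organs of the transgenic line OE-34, a single line in which GmZF351 is overexpressed from a promoter that the sources used here do not name. WT leaf and WT root are organs of the control cultivar Jack, with no transgene recorded. All plants grew in pots and were cut at the V1 stage, with the first trifoliate leaf fully open. With 1 transgenic line, the effect of GmZF351 and any other difference between this line and Jack cannot be told apart. The repeats are called biological, with no word on single or pooled plants, so errors describe the spread between these samples.

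Membership was decided from the expression values themselves. Levels as CPM, each count scaled to a fixed library total, were averaged per group, and the OE over WT ratio, with 0.1 CPM added to both, was divided in each tissue by the ratio of the median gene. Members needed at least 2 CPM in OE leaf and in WT root, a leaf ratio of at least 1.5 and a root ratio of at most 0.667. The median gene had a plain CPM ratio of 1.26 in leaf and 1.05 in root, log2 shifts of 0.33 and 0.07, so every ratio is relative to the bulk of the genes. Of 23123 genes past both level floors, 2983 met only the leaf threshold, 1647 only the root threshold and 114 both. Because these ratios chose the members, the differences between OE and WT are given below as descriptions. Model calls and standard errors on these contrasts show the spread between libraries. Counting intervals pool the libraries of a group and cover counting error only. None of these is an independent test of the contrasts. The deposited table does not pair its identifiers with gene names, and the symbol table at hand matched 0 of them. Members are therefore identified by gene model and position in the Wm82.a2.v1 annotation, and no function is given to any of them.

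Libraries held 16885874 to 19041634 counts. GmZF351 (Glyma.06G290100) had 31406 to 39884 counts in each OE library and 0 to 4 in each WT library, which checks the genotype labels. The leaf labels were checked with the Rubisco activase gene RCA11 (Glyma.11G221000), which stood at 14592 to 27239 CPM in leaf and 1.83 to 3.74 CPM in root. No root marker was checked. Levels here and below are CPM on library sizes scaled by the trimmed mean of M-values (TMM), given as mean ± SD of 3 libraries, unless plain CPM is named.

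**Figure D1:**
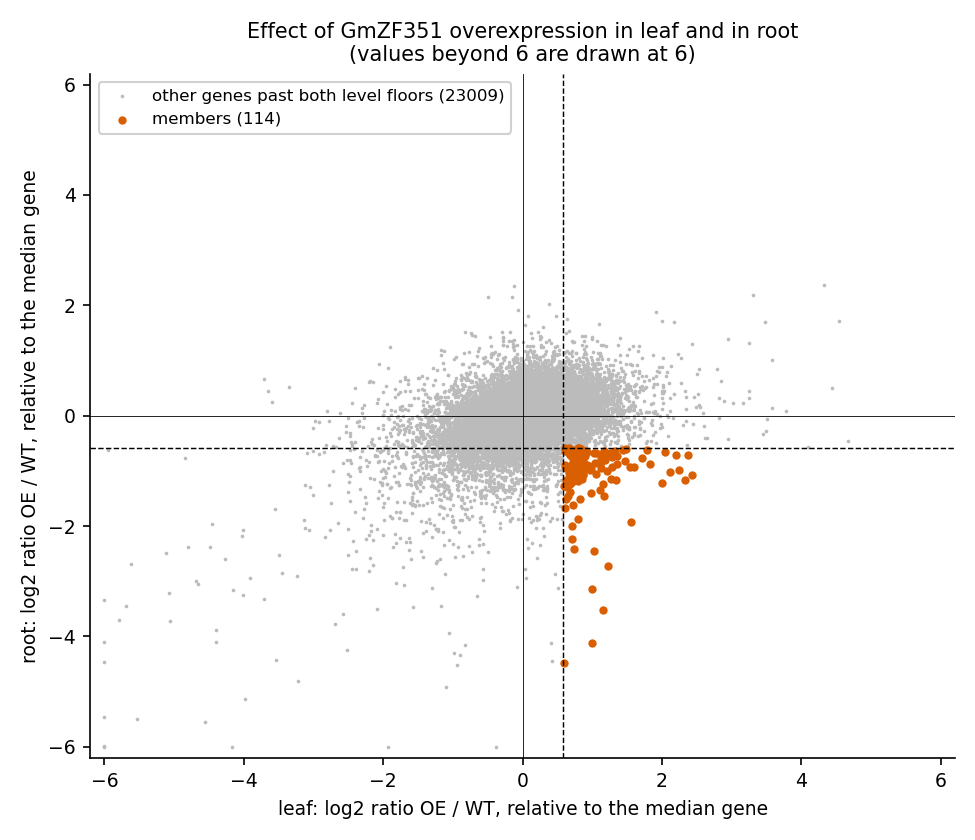
Each point is a gene past both level floors, with the log2 OE over WT ratio in leaf on the x axis and in root on the y axis, both relative to the median gene. The 114 members (orange) fill the corner beyond both dashed thresholds, and 57 of them have a ratio within 10% of a threshold.

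The leaf ratios of the members ran from 1.51 to 5.37 with a median of 1.84, and the root ratios from 0.0446 to 0.666 with a median of 0.535. Changes were modest for most members. In leaf 45 were at least 2-fold higher, in root 44 were at least 2-fold lower, and 14 met both. At least 4-fold differences were seen for 8 members in leaf and 9 in root. For 57 of the 114 one of the ratios lay within 10% of its threshold. Just inside were Glyma.09G098600 (ratios 1.59 in leaf and 0.666 in root), Glyma.12G173500 (1.76 and 0.665) and Glyma.06G318400 (1.74 and 0.665). Just outside were Glyma.02G171900 (1.52 in leaf and 0.66704 in root), Glyma.11G243900 (1.51 and 0.668) and Glyma.01G040600 (1.55 and 0.668).

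In edgeR's fit to all 12 libraries, 111 members were called higher in OE leaf, where 18.3% of all 35968 genes tested were so called. In root 111 members were called lower, against 18.1% of genes tested, and 110 passed in both tissues, against 1.54%. The rule used both contrasts, so nothing is read from these counts. Every OE leaf library stood above every WT leaf library for 107 members (22.2% of genes tested), every OE root library below every WT root library for 111 (24.7%), and both held for 104 (2.81%). The 4 members that did not pass in both tissues are named after their values were seen. Glyma.04G201400 was not called in root, Glyma.13G226700 was not called in leaf, and Glyma.08G085200 and Glyma.09G164100 were called in neither. Glyma.09G164100 (chromosome 9, 38824560 to 38827013) had the most uneven replicates of these 4, with 14.4, 37.2 and 66.9 CPM in OE leaf against 10.3, 19.4 and 14.3 in WT leaf. Its leaf groups overlap, with OE leaf replicate 1 inside the WT range. In root its edgeR log2 fold change of -0.632 was smaller than its standard error of 0.686.

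Ranked by the smaller of its changes in the 2 tissues, Glyma.01G206600 (chromosome 1, 53876805 to 53878322, minus strand, 1 exon) came first. It stood at 8.55, 8.59 and 7.995 CPM in OE leaf and at 3.38, 3.20 and 1.98 in WT leaf, and at 4.76, 4.48 and 5.57 in OE root against 22.8, 19.9 and 15.2 in WT root. Neither pair of groups overlaps. The means were 2.94-fold higher in OE leaf and 3.904-fold lower in OE root, with edgeR log2 fold changes (log2FC) of 1.55 (SE 0.207) and -1.96 (SE 0.16). In Jack this transcript was more abundant in root (19.3 ± 3.81 CPM) than in leaf (2.85 ± 0.764), and in OE-34 more abundant in leaf (8.38 ± 0.331) than in root (4.94 ± 0.567). On plain CPM its means in OE-34 were nearer each other, at 7.33 in leaf and 6.65 in root.

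Glyma.06G142000 (chromosome 6, 11559878 to 11562766, plus strand) also traded organs, with tighter replicates. The 3 OE leaf libraries held 51.0, 48.0 and 43.8 CPM and the 3 WT leaf libraries 9.90, 9.68 and 9.47. OE root held 19.9, 21.4 and 20.7 CPM where WT root held 45.4, 48.4 and 48.6. The level in OE leaf (47.6 ± 3.64) was thus close to that in WT root (47.5 ± 1.82), and the 4 groups fall into 3 separate levels. On plain CPM the means were 41.7 in OE leaf and 59.8 in WT root, so this closeness depends on the scaling.

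Glyma.13G331600 (chromosome 13, 42618879 to 42621231, 1 exon) was 4.21-fold higher in OE leaf, at 5.90, 5.36 and 5.73 CPM against 1.57, 1.72 and 0.741. In root it was scarce in both genotypes, with 0.668, 0.53 and 0.995 CPM in OE against 1.93, 1.74 and 1.81 in WT. The groups do not overlap in either tissue, but the root values sit at the edge of the level floor. Glyma.10G079900 (chromosome 10, 9245085 to 9246282, 1 exon) had overlapping levels in the organs of Jack, at 22.9 ± 1.39 CPM in leaf and 19.1 ± 2.45 in root. In OE-34 the organs stood apart, at 49.5 ± 0.917 CPM in leaf and 7.93 ± 1.31 in root. On plain CPM its means in Jack were 15.4 in leaf and 24.1 in root, so the overlap depends on the scaling.

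The other members of the first 10 were Glyma.11G075000 and Glyma.17G043200, described with the leaf-preferring genes below, and Glyma.06G061900, Glyma.18G065700, Glyma.05G195100 and Glyma.18G026700. The last 4 had leaf means 2.13-fold to 2.45-fold higher and root means 2.26-fold to 2.82-fold lower in OE. Within Glyma.05G195100, WT root was uneven, with 5.41, 6.88 and 10.2 CPM, all above the 3.59, 2.93 and 3.42 of OE root.

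**Figure D2:**
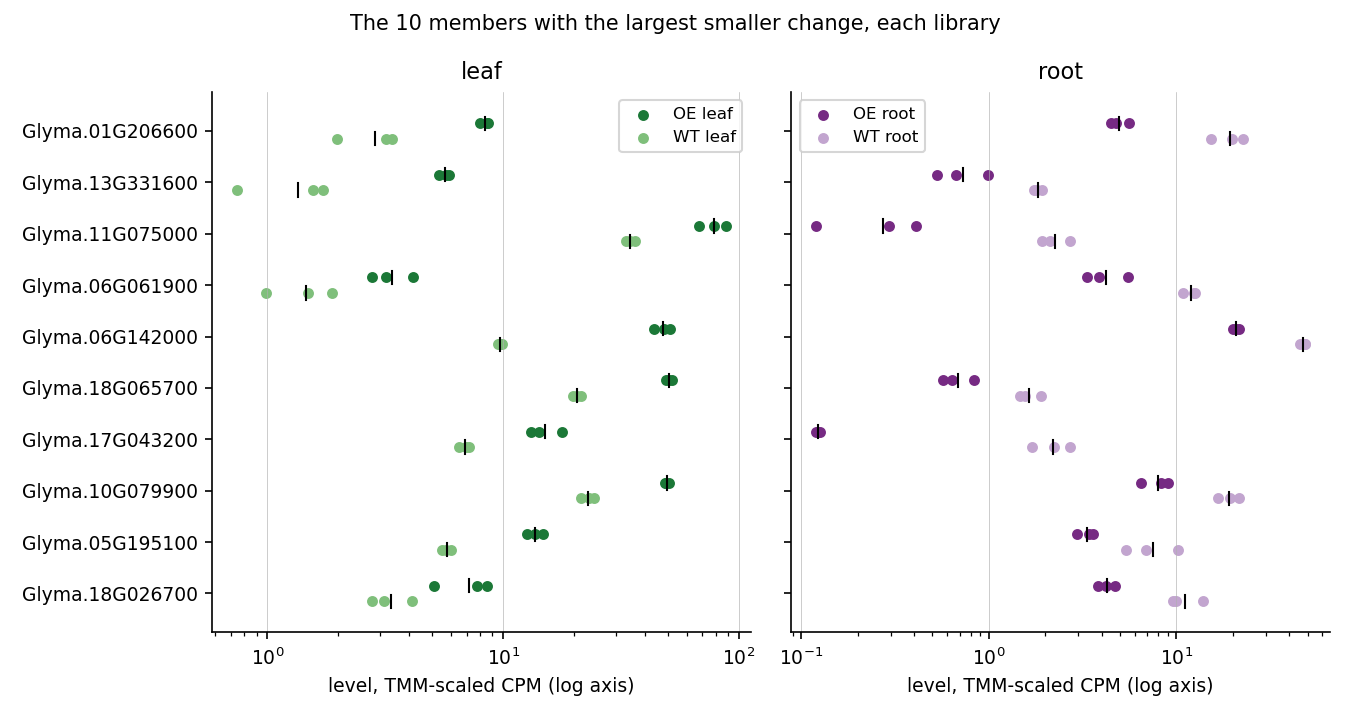
TMM-scaled CPM of the 10 members with the largest smaller change, on log axes, in leaf (left) and root (right), with a point per library and a black bar at the mean of 3. OE points lie to the right of WT points in leaf and to the left in root for each of these genes.

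How the members divide between organs was read from the same levels. The choice of members favours low WT leaf and high WT root values, so the split is a description. In Jack 84 of the 114 (73.7%) were higher in root than in leaf, where 50.2% of all genes past both floors were. In OE-34 42 (36.8%) were higher in root, against 47.3%. For 42 members the order of the organs turned, with root above leaf in Jack and leaf above root in OE-34, and for 0 it turned the other way, a direction the rule itself fixes. Among all 23123 genes past both floors 1995 turned in the first direction and 1345 in the other. On plain CPM, which shifts the log2 root over leaf ratio of the median gene past the floors from 0.01 to 0.91 in Jack, 91 members (79.8%) were higher in WT root, close to the 76.7% of all genes past the floors, so the excess of root-high members in Jack depends on the scaling. In OE-34 56 members (49.1%) were higher in root on plain CPM, against 70.2%, and 35 turned. Among the 94 genes chosen by the mirrored rule, lower in leaf and higher in root, 25 were higher in WT root and 37 turned from leaf to root.

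**Figure D3:**
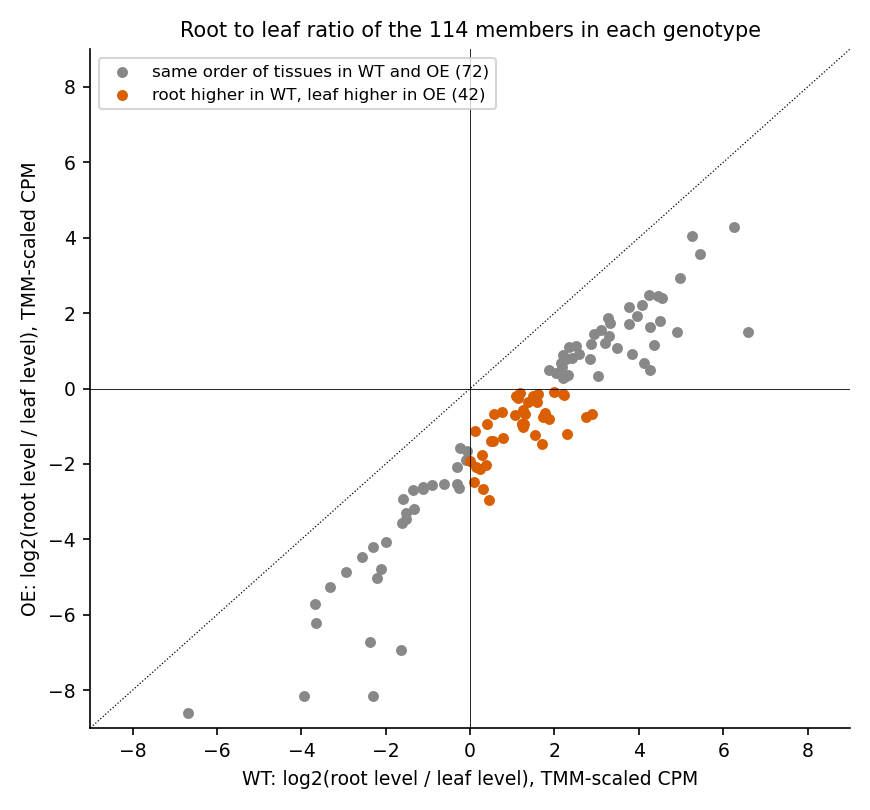
Log2 root over leaf level (TMM-scaled CPM) of each member in Jack (x axis) and in OE-34 (y axis), with the dotted line marking equal ratios. All 114 points lie below the line, as the choice of members requires, and the 42 orange points are root-high in Jack and leaf-high in OE-34.

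At least 4-fold more abundant in root than in leaf of Jack were 46 members, with a median of 33.6 CPM in WT root, 18.3 in OE root, 2.73 in WT leaf and 5.30 in OE leaf. On plain CPM 68 members passed this limit, so the size of the class depends on the scaling. The highest root over leaf ratio was that of Glyma.06G139500 (chromosome 6, 11374542 to 11383558, minus strand, 10 exons). WT root held 239, 222 and 239.5 CPM of it and OE root held 9.93, 9.86 and 10.8, 22.9-fold lower, with the lowest root ratio of the rule among the members. In leaf it held 3.55, 4.39 and 2.93 CPM in OE and 2.72, 2.87 and 1.65 in WT. The root groups lie far apart, while the lowest OE leaf library was just above the highest WT leaf library and the leaf ratio of 1.51 only just met the rule. The leaf call of this gene was lost in 3 of the alternative fits.

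Glyma.15G171000 (chromosome 15, 15602187 to 15606370, plus strand, 9 exons) kept replicates close together in all groups. WT root held 165, 174 and 166 CPM and OE root 30.3, 30.9 and 29.9, 5.55-fold lower. OE leaf held 19.6, 19.2 and 18.1 CPM and WT leaf 10.6, 9.85 and 8.32, so the groups were apart in both tissues. Glyma.17G048900 (chromosome 17, 3716865 to 3719442) was 2.66-fold lower in OE root (92.8 ± 6.52 against 247 ± 24.5 CPM) and 1.56-fold higher in OE leaf (12.3 ± 1.73 against 7.85 ± 0.777).

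Glyma.09G022400 and Glyma.17G065300 were, with Glyma.06G139500, the members with the highest root over leaf ratio in Jack, at 76.9, 43.9 and 96.8. Glyma.09G022400 stood at 141 ± 8.36 CPM in WT root and 86.8 ± 1.68 in OE root, and at 1.84 ± 0.668 in WT leaf and 4.44 ± 0.345 in OE leaf. Glyma.17G065300 stood at 118 ± 7.03 and 48.4 ± 3.46 CPM in WT and OE root, and at 2.69 ± 0.63 and 4.09 ± 0.329 in WT and OE leaf, a leaf call that 2 of the alternative fits did not keep.

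Some of the most abundant members of WT root were also abundant in leaf. Glyma.05G082200 (chromosome 5, 12795781 to 12801741) was the highest of all members there, with 293, 294 and 295 CPM against 173, 183 and 173 in OE root, and it held 125 ± 5.68 CPM in OE leaf and 80.9 ± 10.2 in WT leaf. Glyma.06G259800 held 224 ± 6.99 CPM in WT root, 113 ± 6.0 in OE root, 93.2 ± 1.37 in OE leaf and 48.9 ± 6.37 in WT leaf. In both genes each pair of groups was separate.

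At least 4-fold more abundant in leaf than in root of Jack were 12 members, with medians of 27.2 CPM in WT leaf, 51.6 in OE leaf, 3.13 in WT root and 1.12 in OE root. On plain CPM only 6 members passed this limit. The 12 include the most abundant leaf transcripts of the set. Glyma.02G028100 (chromosome 2, 2533352 to 2534883, plus strand, 1 exon) held 853, 795 and 763 CPM in OE leaf and 356, 392 and 395 in WT leaf. In root it held 14.3, 14.5 and 16.8 CPM in OE and 29.9, 27.3 and 32.3 in WT. Glyma.10G200800 (chromosome 10, 43176609 to 43181023) held 638 ± 47.3 CPM in OE leaf and 283 ± 16.99 in WT leaf. In root it was at 1.96, 1.35 and 1.63 CPM in OE and 2.26, 3.34 and 2.62 in WT, separate but near the level floor. Per kilobase of exon these genes stood at 525 and 308 CPM in OE leaf. Glyma.10G010800 (chromosome 10, 1022364 to 1029001, 21 exons) followed at 109 CPM per kilobase, and its mean went from 162 ± 10.5 to 305 ± 9.94 CPM in leaf and from 21.1 ± 1.81 to 10.5 ± 0.688 CPM in root.

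A few leaf-preferring members were nearly lost from OE root. Glyma.11G075000 (chromosome 11, 5598647 to 5600229, 3 exons) held 88.4, 78.7 and 67.4 CPM in OE leaf and 33.1, 36.4 and 34.5 in WT leaf, but 0.292, 0.408 and 0.119 in OE root where WT root held 1.93, 2.12 and 2.71. On 20 counts in OE root and 146 in WT root, the fold was 8.32 with a 95% exact (Clopper-Pearson) counting interval of 5.19 to 14.02. Glyma.17G043200 (chromosome 17, 3211838 to 3215941, 14 exons) held 17.8, 13.1 and 14.3 CPM in OE leaf against 6.52, 6.97 and 7.17 in WT leaf. Its OE root libraries held 9 counts in all and its WT root libraries 143, a fold of 18.1 with an interval of 9.27 to 40.4.

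A pair of genes outside the naming rule, picked after their values were seen, had a like pattern. Glyma.02G226500 (chromosome 2, 41337759 to 41343807) had 188 counts over the WT root libraries and 7 over the OE root libraries, 30.6-fold lower with an interval of 14.6 to 77.2, and from 14.2 ± 1.76 to 27.4 ± 2.14 CPM in leaf. Glyma.01G175200 (chromosome 1, 51171930 to 51176589) went from 241 to 26 counts in root, 10.6-fold lower with an interval of 7.03 to 16.5, and from 19.4 ± 0.576 to 37.4 ± 1.99 CPM in leaf. The leaf markers RCA11 and RBCS2 (Glyma.19G046800, the Rubisco small subunit) overlapped between the root groups. RCA11 was at 2.84, 1.83 and 3.74 CPM in OE root and 3.38, 3.34 and 3.08 in WT root, and RBCS2 at 4.92, 4.08 and 5.97 and at 5.50, 4.66 and 5.02. In leaf both markers were lower in every OE library than in every WT library. RCA11 was at 15368, 15963 and 14592 CPM in leaf of OE and at 24955, 27239 and 25732 in leaf of WT, and RBCS2 at 7608, 6305 and 5632 and at 12224, 15631 and 13079. Whether this has a part in the leaf values of the members was not tested. In bulk organs, fewer cells of a type and less RNA per cell cannot be told apart.

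Summed over the 114 members, the set took 0.334% ± 0.00772 of all counts in leaf of OE-34 and 0.127% ± 0.000901 in leaf of Jack. In root it took 0.246% ± 0.000577 in OE-34 and 0.494% ± 0.0101 in Jack. Glyma.02G028100 and Glyma.10G200800 alone supplied 37.7% ± 1.40 of the members' counts in OE leaf and 35.1% ± 1.40 in WT leaf, and 0.921% ± 0.0734 in OE root and 0.83% ± 0.0465 in WT root. The median member was at 9.46 CPM in leaf of OE and 5.26 in leaf of WT, and at 5.21 and 9.78 CPM in their roots, below the medians of all genes past both floors (15.9, 15.9, 13.9 and 14.2, in that order). The replicates of members were also more uneven, with a median coefficient of variation of 17.5% in WT leaf and 10.2% to 11.3% in the other groups, against 10.7% and 6.95% to 9.36% for all genes past the floors. The sets were not matched for level, so unevenness that goes with low counts was not separated from this difference. WT root replicate 3 held the highest WT root value for 53 members (46.5%), against 38.7% of genes past the floors. Without it 126 genes met the rule, 102 of them members.

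Position was not used by the rule. Members lay on all 20 chromosomes, from 2 on chromosome 14 to 13 on chromosome 17, which carried 11.4% of members and 5.07% of the genes past both floors. On chromosome 17, 7 of the 13 lay between 3211838 and 5443054, a span that holds 135 of the chromosome's 1173 genes past the floors. They include Glyma.17G043200, Glyma.17G048900 and Glyma.17G065300 above. The span runs from the start of the first to the end of the last of these 7, so the choice of its ends shapes the count. No test of position was made.

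Direct neighbours were few, with 6 members in 3 adjacent pairs. The genes that flank members did not share their pattern in general. Of 116 flanking non-members past both floors, 23 (19.8%) had a leaf ratio above 1 and a root ratio below 1, against 21.1% of all genes past the floors. One pair, Glyma.13G117600 and Glyma.13G117700 (chromosome 13, 23076306 to 23080404 and 23081906 to 23084554), lies on opposite strands. Glyma.13G117700 went from 169 ± 9.03 to 61.0 ± 0.609 CPM in root and from 99.2 ± 6.61 to 151 ± 15.6 in leaf. Glyma.13G117600 was scarcer and went from 16.1 ± 1.76 to 9.40 ± 0.552 CPM in root and from 2.22 ± 0.949 to 5.46 ± 0.993 in leaf.

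The other pairs sit together on chromosome 2. Glyma.02G028100, Glyma.02G028200, Glyma.02G028700 and Glyma.02G028800 lie between 2533352 and 2627188, all on the plus strand. Glyma.02G028800 (1 exon) held 191, 186 and 153 CPM in OE leaf and 38.9, 52.5 and 41.3 in WT leaf, and 6.26, 5.79 and 7.17 in OE root against 8.70, 10.97 and 11.2 in WT root. Glyma.02G028200 (1 exon) held 6.86, 8.53 and 7.995 CPM in OE leaf and 1.81, 0.903 and 1.57 in WT leaf, the largest leaf ratio of the 4 at 5.19. Its root groups, 3.05, 3.02 and 2.31 CPM in OE and 5.45, 4.15 and 4.39 in WT, were separate by less, and the root call was lost without OE root replicate 3 or WT root replicate 1. Glyma.02G028700 differs from these in being higher in root than in leaf in both genotypes. Its root levels were 40.7 ± 4.30 CPM in WT and 26.0 ± 2.14 in OE. Its leaf levels were 3.62 ± 0.437 CPM in WT and 12.4 ± 2.14 in OE. Glyma.02G028200 was higher in root in Jack only, at 4.66 ± 0.696 CPM against 1.43 ± 0.472 in leaf.

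The wider stretch was examined after these values were seen. From Glyma.02G027600 to Glyma.02G028800 (2480629 to 2627188) the table lists 9 models, all on the plus strand and 7 of them a single exon. All 7 with at least 50 counts had a leaf ratio of at least 1.5 and a root ratio below 1, but the ends were placed where this pattern stops and 4 of the 7 are members, so the choice fixes the count. Glyma.02G028000 had leaf levels like the members, 28.7 ± 2.93 CPM in OE and 6.77 ± 1.30 in WT, but only 20 and 40 root counts in OE and WT, too few for the level floor. Glyma.02G027800 was a root transcript, at 50.9 ± 2.50 CPM in WT root and 38.9 ± 1.03 in OE root, with 8 counts in WT leaf and 31 in OE leaf. Before the stretch, Glyma.02G027400 had ratios of 1.97 in leaf and 1.501 in root and Glyma.02G027500 1.11 and 1.47. Beyond it, Glyma.02G029200 had 0.717 and 1.06, Glyma.02G029300 0.893 and 0.984, and Glyma.02G029600 1.04 and 0.917. Glyma.02G029400 had 0 leaf counts and a root ratio of 0.514. Reads marked by the aligner as fitting more than 1 place were not counted, so the levels of any near-identical copies in the stretch are uncertain. Glyma.02G028700 shares its start with Glyma.02G028600, and reads in shared exons were assigned to neither.

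**Figure D4:**
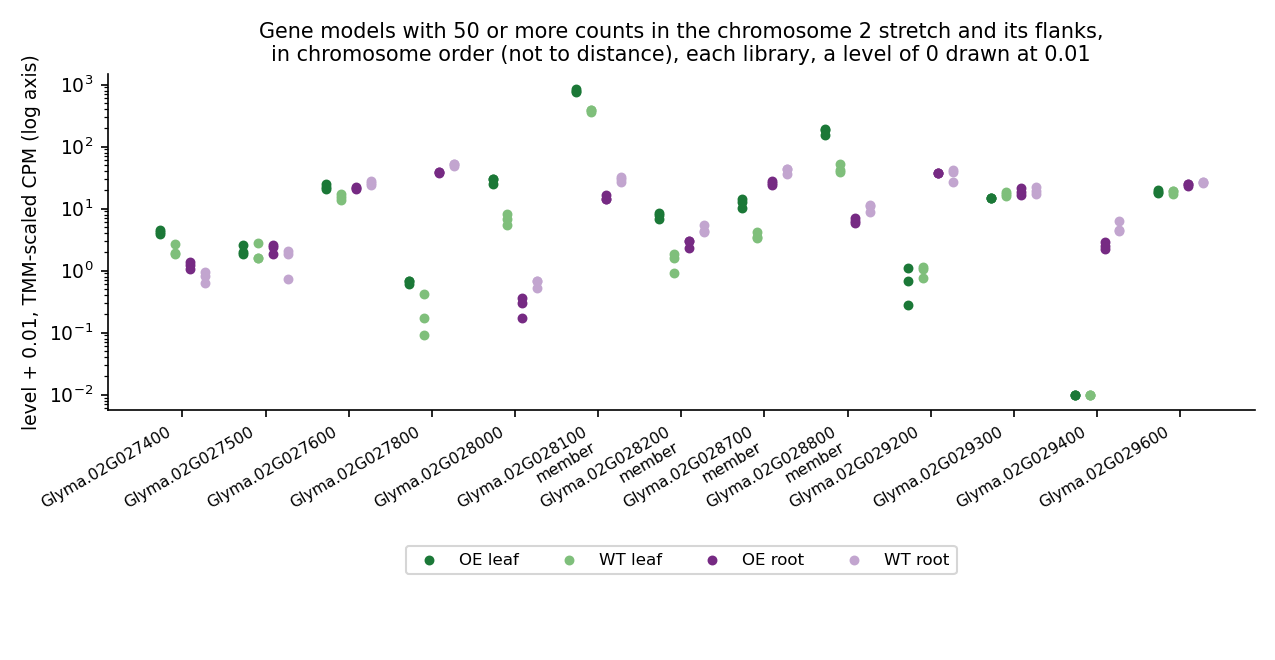
TMM-scaled CPM plus 0.01 on a log axis for each library of the 4 groups, for gene models of the chromosome 2 stretch and its flanks with at least 50 counts, in chromosome order. From Glyma.02G027600 to Glyma.02G028800 the OE leaf points lie above WT leaf and the OE root points below WT root, while the flanking models on either side do not show both orders.

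Gene structure did not enter the rule, but its level floors are not per kilobase and move structure themselves, as the values for genes tested and genes past the floors show. The median member had 3 exons, overlapping ones merged, where the genes tested had 5 and the genes past both floors 6. A single exon was found in 26 members (22.8%), against 12.5% of the genes tested and 7.64% of those past the floors. Genes of the mirrored rule were alike in this, with 23 of 94 (24.5%) having a single exon. The median exonic length was 1828 bp for members, 1857 bp for genes tested and 2014 bp for genes past the floors. Another model overlapped 3 members (2.63%, against 4.67% of genes past the floors), 1 of them, Glyma.08G298200 (named after the count was seen), on the opposite strand, which counting without strand cannot separate.

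The same measure can be read in libraries that took no part in the choice. These come from the same line and cultivar, so they show the spread between replicates only. When 1 replicate number was left out of every group and the rule applied to the others, 135, 147 and 137 genes were chosen, of which 92, 89 and 94 were members. In the left-out libraries 89.6%, 87.1% and 87.6% of the chosen genes had a leaf ratio above 1 and a root ratio below 1, where 22.4%, 20.8% and 22.5% of all genes past the floors did. Both thresholds were met again by 43.7%, 44.2% and 46.7%. The median leaf ratio was 1.89, 1.82 and 1.83 in the libraries used for the choice and 1.72, 1.66 and 1.77 in those left out. In root the medians were 0.54, 0.551 and 0.566 against 0.582, 0.565 and 0.598. Of the 114 members, 61 were chosen each time.

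**Figure D5:**
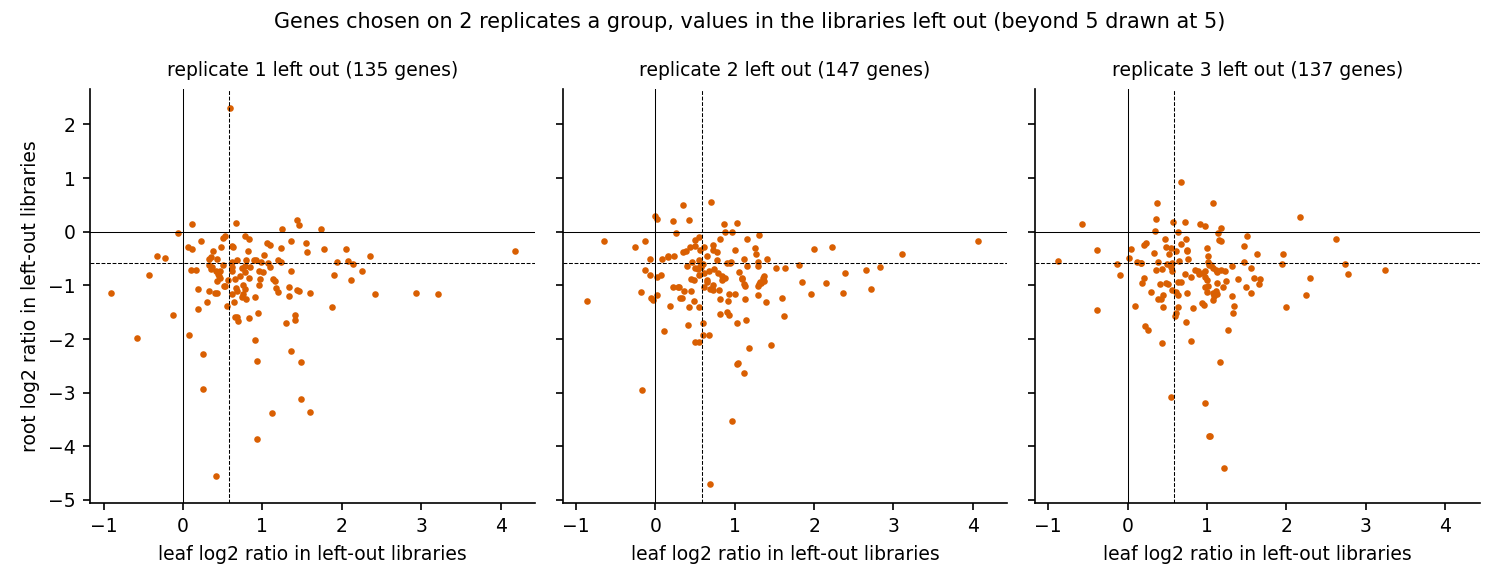
Genes chosen by the rule on 2 replicates per group, plotted by their log2 leaf ratio (x axis) and root ratio (y axis) in the libraries left out, with a panel for each replicate number and dashed lines at the thresholds. Between 120 and 128 genes per panel fall where leaf is higher and root lower, and 59 to 65 lie beyond both thresholds.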

How the data were processed

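The authors deposited 1 table of raw read counts per gene model, made with featureCounts 2.0.1 in paired-end mode over exons summed by gene identifier, annotation Wm82.a2.v1, per the file headers. Which aligner was used was not given in the sources used here. No strand, multi-mapping or multi-overlap option was set, per the file headers, so antisense partners are not separated. A read that the aligner marked as fitting several places adds to none, and whether all such reads were marked is not known. No library was a copy of another: between replicates, chi-square per gene was 2.26 to 9.87 (genes with a pair total of 50 or more), above sampling noise.

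Membership ratios were computed from plain CPM. Counts then went into edgeR 4.0.16 (R 4.3.3), where filterByExpr kept 35968 genes, libraries were scaled by TMM, and robust quasi-likelihood fits of the 4 groups left 8 residual degrees of freedom. Calls are edgeR p-values adjusted by Benjamini-Hochberg over all genes tested, under 0.05. SE is the absolute log2FC divided by the square root of the F statistic. DESeq2 1.42.0, other scaling, no filter, a fit per tissue, a replicate block and leaving out each library were alternatives. Counting intervals cover counting error only.

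Named genes were the 10 members with the largest smaller change, the 6 highest in OE leaf and in WT root, the 3 nearest the threshold on each side, the neighbouring members, and the 3 most root-high and leaf-high in Jack. The members and lists were chosen with earlier results of these data known. Lists that need gene descriptions could not be applied, and no root marker or sequence was used here.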

Additional observations from a re-analysis of the deposited data

Results flagged for a closer look

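The effect of overexpression differed between root and leaf, with the lower log2FC in root, for 113 of the 114 members in edgeR's test of the difference, where 11.2% of the genes tested were so called. It was flagged because effects that differ between tissues are listed here. The rule selects such genes, so the count describes the choice and carries no further weight.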

How the results depend on the processing

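The number of genes that met the rule depended on its settings. It was 222 with plain CPM ratios (96 of them members), 71 with 1 CPM added, 31 with a floor of 10 CPM and 14 with 2-fold thresholds, and 115 to 128 when single libraries were left out. TMM-scaled CPM gave 114 genes, 102 of them members. Counts of members called ran from 96 to 111 in leaf, 102 to 113 in root, 96 to 105 in both and 112 to 114 for the difference when single libraries were left out, and the other fits changed none by over 1.5 times. With a replicate block 109, 109, 106 and 113 passed. Same-numbered samples had correlations of -0.057 to 0.0484 in their deviations from the group means. No pairing by number was seen, but samples paired with little shared spread would look the same, so pairing is not excluded. Of 1054 values of named genes in other fits, 0 reversed and 9 lost a call, on Glyma.02G028200 in root and the non-member Glyma.02G171900, Glyma.06G139500 and Glyma.17G065300 in leaf. Members were 29 bp shorter in median exonic length than the genes tested (-29) and -186 bp against the genes past both floors. The WT root count was 82 to 84 without single WT libraries and 69 at 2-fold or more. With at most 3 models between them, a distance chosen after seeing the data, 8 members neighboured another. Low counts limit members near 2 CPM most.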
